A study of Mus musculus with 9 samples.

Results

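The nuclear genes of the respiratory chain and the ATP synthase were followed in tdTomato-sorted mouse kidney cells, from uninjured proximal tubule through 48 h to day 14 (d14) after ischemia-reperfusion injury (IRI). Genes were taken by symbol (names beginning with Nduf, Uqcr, Atp5 or Cox4 to Cox8, and Sdha to Sdhd) when they held at least 1000 counts over the 9 libraries and their symbol did not contain -ps. Among 55385 genes measured, 109 symbols matched, 11 of them contained -ps, 12 others had fewer counts, and 86 genes remained. They comprised 37 subunit genes of complex I, 4 of complex II, 8 of complex III, 11 of complex IV, 17 of complex V (the ATP synthase) and 9 genes of assembly or associated factors. Ndufa4, which carries a complex I symbol, was counted with complex IV, where its product resides. The lowest totals inside the threshold were those of Ndufaf6 (2153 counts) and Ndufaf5 (2172 counts), and the nearest outside it were Cox7a1 (747 counts) and Cox6b2 (509 counts). Ndufb1-ps, with 7260 counts, was left out by its symbol. Of the 86 genes 85 are annotated as protein-coding, and Ndufb4c is annotated as a processed pseudogene that nearly copies Ndufb4, so the division of reads between these is uncertain. All 86 genes passed the filter on low counts.

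The respiratory chain passes electrons from NADH (complex I) and succinate (complex II) through ubiquinone, complex III and cytochrome c to oxygen at complex IV. Complexes I, III and IV pump protons across the inner mitochondrial membrane, and complex V, whose catalytic F1 head sits on the membrane-embedded Fo part and a stalk, uses the gradient to make ATP. Complex II is encoded by nuclear genes alone, whereas the others combine nuclear and mitochondrially encoded subunits. Proximal tubule cells are rich in mitochondria and draw most of their ATP from this pathway, which powers the reabsorption of solutes.

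The uninjured group came from Slc34a1IRES-CreERT2/+:R26RtdT/+ mice, in which a tamoxifen-activated Cre recombinase under Slc34a1, a phosphate transporter gene of the proximal tubule, switches on tdTomato. The 48 h and d14 groups came from Sox9IRES-CreERT2/+:R26RtdT/+ mice with IRI of both kidneys, so that tdTomato marked cells with activity of Sox9, a transcription factor gene of injured and regenerating epithelium. Tamoxifen was given at IRI for the 48 h group and on days 10 and 12 for the d14 group. All mice were males of 9 to 12 weeks and 25 to 30 g, all carried the R26R tdTomato reporter, and each group had 3 libraries labelled as biological replicates. Cells were released from cortex and outer medulla by a protease active in the cold, sorted for tdTomato, and polyadenylated RNA was sequenced from up to 30 ng of total RNA. Between the uninjured group and either injured group, Cre allele, injury and tamoxifen schedule changed together, so their parts cannot be told apart. The 48 h and d14 groups shared the Cre allele and the injury, and time and tamoxifen schedule differed together between them. Sham surgery of the uninjured mice is stated in none of the sources read.

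Total counts ranged from 8036054 to 51631204 per library. Levels are given as CPM, read counts relative to a library size adjusted by TMM, a scaling that sets library factors from the bulk of genes. The TMM factors were 0.846 to 0.902 in uninjured libraries, 0.848 to 0.912 at 48 h and 1.21 to 1.48 at d14. Sox9 was at 0.274 ± 0.318 CPM (mean ± SD, n = 3) in uninjured cells, 14.9 ± 7.28 at 48 h after IRI and 33.2 ± 5.07 at d14, in the order of the labels. The summed level of 12 proximal tubule markers lay between 28770.2 and 36235.5 CPM in uninjured libraries, between 8168.5 and 17711.7 at 48 h and between 3943 and 6710.4 at d14. That of 8 markers of thick ascending limb and distal convoluted tubule lay between 214 and 327, between 1129.6 and 1166, and between 4852 and 8648 CPM. Collecting duct markers (10 genes) summed to 62.7 to 84.3, 258 to 276 and 329 to 431 CPM. Leukocyte markers (10 genes) summed to 20.99 to 27.7, 177 to 473 and 34.6 to 92.5 CPM, endothelial markers (6 genes) to 58.4 to 107, 64.4 to 562 and 20.1 to 45.9 CPM, and fibroblast and pericyte markers (6 genes) to 4.99 to 10.99, 1.15 to 4.15 and 9.86 to 19.1 CPM. No marker gene was without counts in a whole group. Of all genes edgeR called 11.7% and 20.7% lower, and 17.4% and 25.1% higher, at 48 h and at d14 against uninjured. Of the markers tested, it called 8 and 11 of 12 proximal tubule genes lower. Called higher were 6 and 4 of 8 leukocyte genes, 0 and 2 of 6 fibroblast and pericyte genes and 0 of 6 endothelial genes at both times. So were 6 and 8 of 8 thick ascending limb or distal convoluted tubule genes and 7 and 8 of 10 collecting duct genes. Markers of other nephron segments therefore moved with the groups in the same libraries as the values below, and their part in those values was not tested. In RNA from a pool of cells, fewer cells of a type and less RNA per cell cannot be told apart.

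The promoters of 72 of the 86 genes were listed in RefSeq (GRCm38.p6), as windows of 300 bases around the transcription start. The motif of NRF1, a factor known for nuclear genes of mitochondrial proteins, was searched on both strands as GCGCA and GCGC with 1 base of any kind between them and occurred in 18 of the 72 windows (25%), against 4.78% of 27025 windows of all genes. The ETS core bound by GABP, searched as CCGGAAG, was present in 18 windows (25%, against 9.12% of all). The YY1 motif AAGATGGC was present in 10 (13.9%, against 2.88%) and the ESRRA motif TCAAGGTCA in 2 (2.78%, against 0.407%). By complex, the NRF1 motif was in 7 of 32 windows of complex I, 2 of 3 of complex II, 1 of 5 of complex III, 1 of 9 of complex IV and 5 of 15 of complex V. Below are the 150 bases before the RefSeq start of subunit genes picked by hand, not ranked by their change. They show how unlike the proximal sequence of co-measured subunits is. Capitals mark motif matches, which do not overlap, and sequences read 5′ to 3′ on the gene's strand. Some GENCODE transcripts of these genes start farther upstream. Positions are Sdha at chr13:74350241-74350390 (minus strand), Sdhb at chr4:140961121-140961270 (plus strand), Sdhd at chr9:50603850-50603999 (minus strand), Ndufs6 at chr13:73328483-73328632 (minus strand), Ndufb3 at chr1:58586247-58586396 (plus strand), Uqcrfs1 at chr13:30545317-30545466 (minus strand) and Cox5b at chr1:36691337-36691486 (plus strand).
Sdha: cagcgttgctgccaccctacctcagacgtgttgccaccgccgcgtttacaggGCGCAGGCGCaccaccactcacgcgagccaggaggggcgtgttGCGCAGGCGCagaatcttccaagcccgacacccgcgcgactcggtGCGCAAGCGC
Sdhd: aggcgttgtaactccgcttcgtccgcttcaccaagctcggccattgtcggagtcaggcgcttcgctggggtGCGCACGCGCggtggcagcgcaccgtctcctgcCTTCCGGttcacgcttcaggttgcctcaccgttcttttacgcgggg
Ndufs6: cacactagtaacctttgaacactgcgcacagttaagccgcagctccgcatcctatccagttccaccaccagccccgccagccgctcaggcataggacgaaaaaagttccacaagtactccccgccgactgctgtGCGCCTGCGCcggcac
Sdhb: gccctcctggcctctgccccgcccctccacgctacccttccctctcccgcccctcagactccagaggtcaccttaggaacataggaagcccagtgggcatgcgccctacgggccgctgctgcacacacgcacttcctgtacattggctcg
Ndufb3: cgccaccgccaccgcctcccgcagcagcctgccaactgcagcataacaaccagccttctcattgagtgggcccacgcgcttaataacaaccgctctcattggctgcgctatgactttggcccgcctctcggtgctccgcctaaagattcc
Uqcrfs1: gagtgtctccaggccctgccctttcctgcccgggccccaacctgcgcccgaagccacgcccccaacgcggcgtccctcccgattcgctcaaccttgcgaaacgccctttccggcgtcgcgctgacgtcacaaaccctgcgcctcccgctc
Cox5b: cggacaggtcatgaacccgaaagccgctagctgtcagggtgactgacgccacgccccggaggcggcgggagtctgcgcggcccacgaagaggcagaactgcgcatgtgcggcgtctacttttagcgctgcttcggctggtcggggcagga
The Sdha stretch holds 3 NRF1 matches, Sdhd holds an NRF1 and an ETS match, Ndufs6 an NRF1 match, and the other stretches none of the motifs searched. The windows of 300 bases counted above reach beyond these stretches. There Sdhb also had an ETS match, Sdhd an ESRRA match and Ndufs6 a YY1 match. A match is a run of letters and shows no binding, and its absence from a window says nothing of the factor.

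In uninjured cells the members spanned more than 2 orders of magnitude per length. Per kilobase of exon, Atp5b (F1 subunit beta) had the highest mean level with 548 CPM, followed by Atp5a1 (F1 subunit alpha) with 534, Cox6a1 with 431 and Cox8a with 420, and the assembly factor Ndufaf2 the lowest with 3.54. The median level per kilobase was 176 CPM for complex IV, 151 for complex III, 133 for complex II, 96.3 for complex V and 71.5 for complex I, against 8.84 for the assembly or associated factors. At d14 these medians were 113, 95.9, 75.4, 57.6, 45.1 and 5.00 CPM per kilobase, and Atp5b remained the highest with 345. The order of complexes by this measure was therefore alike in uninjured and d14 libraries, with complex IV at the top and complex I lowest among the complexes. Length was that of all annotated exons of a gene joined, which can exceed the length of its transcripts. Without division by length the medians of complexes I to V were 103, 239, 172, 242 and 155 CPM in uninjured libraries. At d14 they were 69.8, 120, 114, 185 and 122 CPM. Complexes IV and I kept their places, and the order of the others differed.

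The summed level of all 86 genes was 18105, 17072 and 16966 CPM in the uninjured libraries, 15095, 14547 and 13121 CPM at 48 h after IRI, and 10052.5, 11607 and 12462 CPM at d14. The groups did not overlap on this scale, and d14 replicate 1, which had the largest TMM factor (1.48) and the lowest proximal tubule marker sum, was the lowest of all. Mean TMM-scaled levels were highest in uninjured cells and lowest at d14 for 58 genes. For 23 genes 48 h was highest and d14 lowest, for 3 genes uninjured was highest and 48 h lowest, and for 2 genes 48 h was highest and uninjured lowest.

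**Figure D1:**
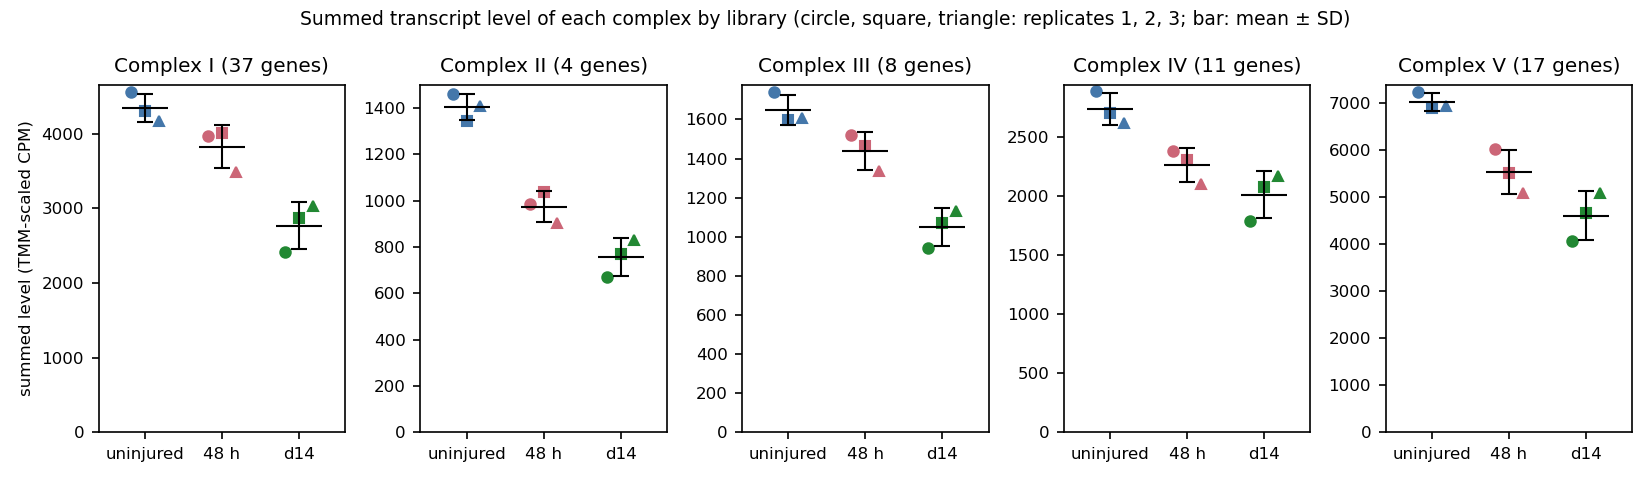
Summed TMM-scaled CPM of the subunit genes of complexes I to V in each library (y axis from 0; circle, square and triangle are replicates 1, 2 and 3, and bars are mean ± SD, n = 3). In every complex the 3 uninjured libraries lie above the 3 libraries at 48 h, and d14 replicate 1 is the lowest point; without TMM the ranking of the d14 libraries changes, as the plot of medians under each scaling shows.

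At 48 h a minority of the genes was lower than in uninjured cells. With edgeR's quasi-likelihood test and Benjamini-Hochberg adjustment over 15519 genes, 21 of 86 were called lower at an adjusted p under 0.05, where 11.7% of all genes tested were called lower. None was called higher (17.4% of all genes were); 1, Ndufaf2, was higher at an unadjusted p under 0.05, and DESeq2 and limma voom called 0. The 48 h libraries lay wholly below the uninjured ones for 31 genes (20.8% of all genes) and wholly above for 1 (21.5% of all genes). The median log2 fold change was -0.12, against 0.02 over all genes tested, and it was above 0 (0.09, against 0.22 over all genes) under 1 of 7 scalings of the libraries, their size without mitochondrially encoded genes and without TMM. By complex, these were 3 of 4 complex II genes, 5 of 11 of complex IV, 3 of 8 of complex III, 7 of 37 of complex I, 2 of 17 of complex V and 1 of 9 assembly or associated factors. The complex medians were -0.45 for II, -0.28 for IV, -0.17 for III, -0.09 for I and -0.09 for V; with the library size without mitochondrially encoded genes, those of I, III and V turned to 0.11, 0.04 and 0.12. The count was 8 without uninjured replicate 1, where 7.10% of all genes were called lower, and 10 without 48 h replicate 3, where 7.998% were.

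At d14 most genes were lower than in uninjured cells on the TMM scale. edgeR called 71 of 86 lower (adjusted p under 0.05), where 20.7% of all genes were called lower, and none higher (25.1% of all genes were); 0 were higher at an unadjusted p under 0.05, as with DESeq2 and voom. The d14 libraries lay wholly below the uninjured ones for 81 genes (28.9% of all genes) and wholly above for 0 (34.4% of all genes). The median log2 fold change was -0.56, against 0.06 over all genes. By complex, 34 of 37 genes of complex I were lower, 4 of 4 of complex II, 7 of 8 of complex III, 9 of 11 of complex IV, 12 of 17 of complex V and 5 of 9 assembly or associated factors. Complex II had the lowest median with -0.94, followed by III (-0.62), I (-0.59), V (-0.48) and IV (-0.45). Those of complexes IV and V turned to 0.11 and 0.07 when libraries were scaled by size alone. The genes that did not pass were Ndufb2, Ndufs4, Ndufv2, Uqcrh, Cox5b, Cox6b1, Atp5e, Atp5g1, Atp5g2, Atp5h, Atp5mpl, Cox7a2l, Ndufaf2, Ndufaf5 and Ndufaf8.

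Between d14 and 48 h, 47 of 86 genes were called lower at d14 by edgeR (adjusted p under 0.05), where 16.3% of all genes were, and none higher (16.8% of all genes were; 0 at an unadjusted p under 0.05, and 0 with DESeq2 and voom). The d14 libraries lay wholly below the 48 h libraries for 57 genes (20.6% of all genes) and wholly above for 0 (26.7% of all genes). The median was -0.40 against 0.05 over all genes, and turned to 0.17 with library size alone. Complex I had 25 of 37 genes lower, complex II 3 of 4, complex III 6 of 8, complex IV 3 of 11, complex V 7 of 17 and the assembly or associated factors 3 of 9. The complex medians were -0.58 for II, -0.53 for III, -0.46 for I, -0.35 for V and -0.20 for IV, and with library size alone all but that of complex II (-0.01) were above 0. Without d14 replicate 1 the count was 26, where 11.2% of all genes were called lower. This comparison shares libraries with both others.

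**Figure D2:**
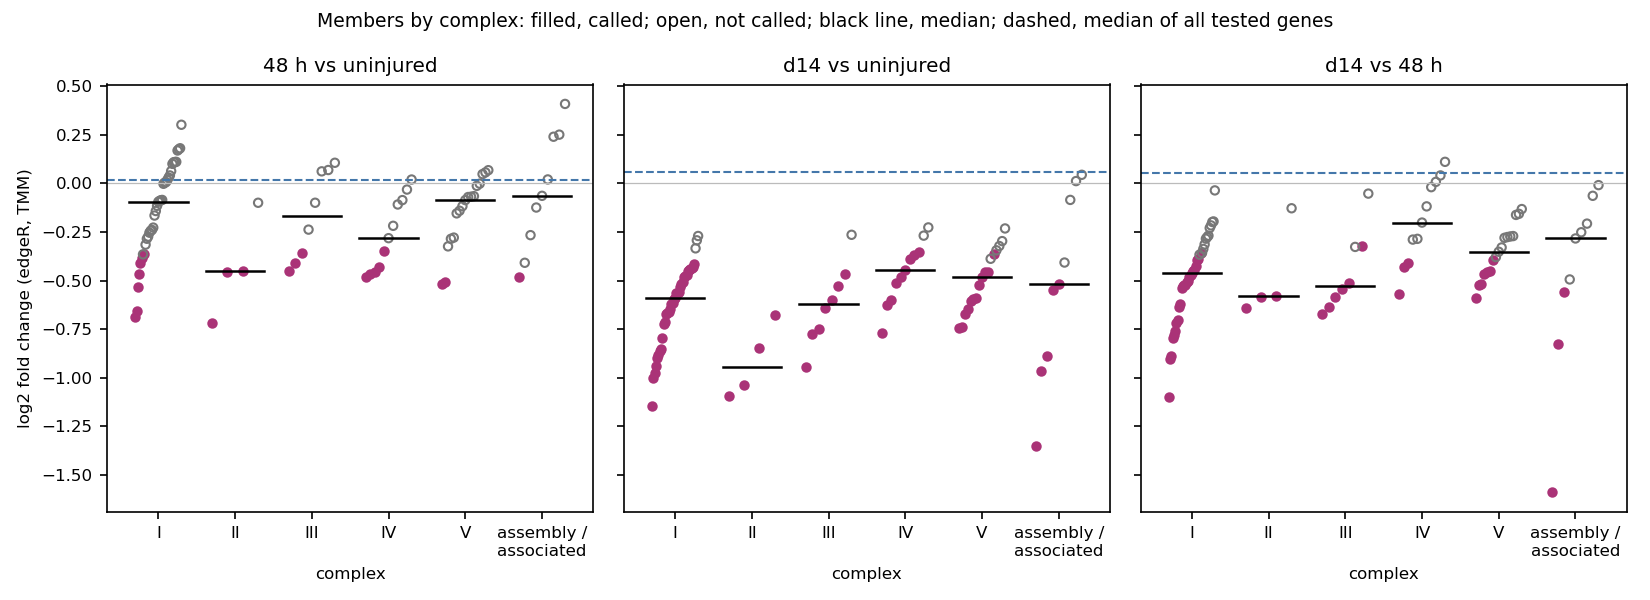
Log2 fold change (TMM-scaled, edgeR) of each of the 86 genes by complex in the 3 comparisons; filled points passed an adjusted p under 0.05, open points did not, black lines are the medians of a complex and the dashed line is the median of all 15519 genes. Filled points are all below 0, at 48 h most densely in complexes II and IV, and at d14 in every complex; with libraries scaled by size alone the medians of complexes IV and V at d14 against uninjured lie above 0.

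Complex II, succinate dehydrogenase, is shared by the citric acid cycle and the chain. Sdha (chr13:74322254-74350280, GRCm38), the flavoprotein that oxidises succinate, was at 759, 692 and 753 CPM in uninjured libraries, 445, 467 and 427 at 48 h after IRI and 352, 416 and 457 at d14. All injured libraries lay below all uninjured ones, and 48 h and d14 overlapped. Its log2 fold change was -0.72 ± 0.13 (SE) at 48 h against uninjured (edgeR adjusted p = 0.00166), -0.85 ± 0.13 at d14 against uninjured (adjusted p = 0.000224) and -0.13 ± 0.13 between d14 and 48 h (adjusted p = 0.466). Sdhb (chr4:140961203-140979193), the iron-sulfur subunit, was at 257, 240.1 and 246 CPM, then 202, 184 and 157, then 108, 120.1 and 133, and no group overlapped another. It fell by 0.45 on the log2 scale at 48 h (SE 0.12, edgeR adjusted p = 0.0189) and by 1.04 at d14 (SE 0.13, adjusted p = 4.85e-05). Sdhc (chr1:171127165-171150603), a membrane anchor, was at 243, 222 and 225 CPM, then 161, 191 and 153, then 101.4, 109 and 112, again without overlap, with -0.45 ± 0.12 at 48 h (edgeR adjusted p = 0.0132) and -1.09 ± 0.12 at d14 (adjusted p = 1.83e-05). Sdhd (chr9:50596357-50603812), the other anchor, was at 199, 189 and 185 CPM in uninjured cells, 176, 194 and 165 at 48 h after IRI and 109, 123 and 127 at d14. The uninjured and 48 h libraries of Sdhd overlapped (-0.10 ± 0.11, edgeR adjusted p = 0.545), while d14 lay below both (-0.68 ± 0.11 against uninjured, adjusted p = 0.000434). The ratio of Sdha to Sdhb counts was 2.97 ± 0.0901 in uninjured cells, 2.49 ± 0.257 at 48 h after IRI and 3.38 ± 0.115 at d14 (mean ± SD, n = 3), and the 3 groups did not overlap.

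Complex I holds core subunits, which carry the redox groups, and accessory subunits around them. At 48 h 2 of the 7 core genes and 5 of the 30 accessory genes were lower, where 11.7% of all genes were, with medians of -0.25 and -0.09. At d14 against uninjured 6 and 28 were (20.7% of all genes), with medians of -0.59 and -0.58, and between d14 and 48 h 3 and 22 were (16.3% of all genes). These counts are on the TMM scale. Ndufs1 (chr1:63143596-63176833), the large iron-sulfur subunit of the NADH-oxidising module, was at 225, 203 and 214 CPM in uninjured cells, 134, 137 and 136 at 48 h after IRI and 97.2, 119 and 118 at d14. The 3 groups did not overlap, with -0.66 ± 0.11 against uninjured (edgeR adjusted p = 0.00137) and -0.28 ± 0.11 from 48 h to d14 (adjusted p = 0.0719). Ndufv1 (chr19:4007384-4012806), which binds NADH and FMN, was at 254, 234 and 236 CPM, then 158, 184 and 159, then 106, 126 and 135, with no overlap. Its log2 fold change was -0.53 ± 0.12 at 48 h (edgeR adjusted p = 0.00788) and -0.98 ± 0.12 at d14 (adjusted p = 6.44e-05). Ndufv3 (chr17:31520115-31531331), an accessory subunit of the same module, was at 167, 152 and 158 CPM, then 109.5, 112 and 75.5, then 63.5, 71.6 and 81.0. Its d14 and 48 h libraries overlapped, uninjured lay above both, and its -1.14 ± 0.16 (edgeR adjusted p = 0.000125) was the largest fall of a complex subunit at d14 against uninjured.

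Several other complex I genes did not pass at 48 h and were lower at d14. Ndufs6 (chr13:73319838-73328542), a zinc-binding accessory subunit, was at 106, 101.1 and 98.5 CPM in uninjured cells, 96.4, 92.8 and 98.6 at 48 h after IRI and 49.1, 60.6 and 56.1 at d14. The uninjured and 48 h libraries overlapped (-0.09 ± 0.11, edgeR adjusted p = 0.590), and d14 lay wholly below them, by 0.88 (SE 0.11, adjusted p = 4.95e-05) against uninjured. Ndufab1 (chr7:122085403-122101886), the mitochondrial acyl carrier protein, was at 132, 133 and 117 CPM, then 120, 125 and 109, then 62.8, 66.4 and 76.1, the same arrangement of groups, with -0.78 ± 0.12 from 48 h to d14 (edgeR adjusted p = 0.000585). Ndufb3 (chr1:58586384-58595964), an accessory subunit of the membrane arm, was at 100.3, 96.4 and 89.2 CPM, then 96.9, 149 and 107, then 46.3, 56.9 and 61.5. Replicate 2 at 48 h was well above all other libraries, 48 h and uninjured overlapped, and d14 was below both. Ndufb3 had the largest fall of any subunit from 48 h to d14, -1.10 ± 0.17 (edgeR adjusted p = 0.000702). Ndufb4 and its near-identical copy Ndufb4c, whose reads RSEM may divide, were at means of 37.8 and 79.2 CPM in uninjured cells, 42.8 and 81.7 at 48 h after IRI and 23.1 and 43.5 at d14. Ndufa6 (chr15:82350140-82354322), an accessory subunit, in contrast fell at each time, from 166, 176 and 157 CPM through 131, 139.7 and 118 to 72.8, 87.9 and 89.1, with no overlap between groups. It passed at 48 h (-0.36 ± 0.12, edgeR adjusted p = 0.0401) and at d14 against uninjured (-0.999 ± 0.12, adjusted p = 4.46e-05).

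Complex III transfers electrons from ubiquinol to cytochrome c. Uqcrfs1 (chr13:30540308-30545362), the Rieske iron-sulfur protein, was at 265, 251 and 246 CPM in uninjured cells, 217, 197 and 180.4 at 48 h after IRI and 123, 138 and 136 at d14. The groups did not overlap, and the log2 fold change was -0.36 ± 0.11 at 48 h (edgeR adjusted p = 0.0315) and -0.94 ± 0.11 at d14 (adjusted p = 4.12e-05). The core proteins behaved likewise in order: Uqcrc1 was at 353, 336 and 347 CPM, then 297, 288 and 294, then 177, 207 and 232, and passed the test only in the comparisons with d14 (-0.75 ± 0.12 against uninjured, edgeR adjusted p = 0.000344; at 48 h adjusted p = 0.157). Uqcrc2 was at 322, 293 and 311 CPM, then 230.0, 241 and 206, then 173, 177 and 192, without overlap, and passed at 48 h (-0.45 ± 0.11, edgeR adjusted p = 0.00985) and at d14 (-0.78 ± 0.11, adjusted p = 0.00015). Small subunits split in time. Uqcrb (ubiquinone-binding) was at 131, 123 and 124 CPM, then 135, 143 and 119, then 77.03, 81.0 and 91.1, with overlap between uninjured and 48 h and d14 below (-0.67 ± 0.11 from 48 h to d14, edgeR adjusted p = 0.00124). Uqcr11, in contrast, was at 148, 122 and 120 CPM, then 108, 90.5 and 93.5, then 87.4, 92.9 and 102. Both injured groups lay below uninjured and overlapped each other, with -0.41 ± 0.12 at 48 h (edgeR adjusted p = 0.0289) and -0.05 ± 0.12 from 48 h to d14 (adjusted p = 0.781).

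Complex IV, cytochrome c oxidase, had several genes whose 48 h and d14 libraries overlapped on the TMM scale; with library size alone its median for d14 against 48 h was 0.37. Cox4i1 (chr8:120668222-120674207), the ubiquitous isoform of subunit 4, was at 479, 485 and 444 CPM in uninjured cells, 365, 350.2 and 312 at 48 h after IRI and 327, 342 and 363 at d14. Both injured groups were below uninjured and overlapped, with -0.46 ± 0.11 (edgeR adjusted p = 0.0113), -0.45 ± 0.11 (adjusted p = 0.00682) and 0.01 ± 0.11 (adjusted p = 0.964) for 48 h and d14 against uninjured and d14 against 48 h. With library size alone its d14 value against uninjured turned to 0.11 (edgeR adjusted p = 0.476). Cox7b (chrX:106015700-106022450) was at 169.7, 159 and 171 CPM, then 128, 116 and 118, then 123, 125 and 144, with the same arrangement, -0.46 ± 0.11 at 48 h (edgeR adjusted p = 0.00798) and -0.35 ± 0.11 at d14 (adjusted p = 0.0184). On the TMM scale Cox6c and Cox8a were also lower at both times against uninjured. Their means were 242, 180.1 and 185 CPM for Cox6c and 260.3, 204 and 202 CPM for Cox8a. Cox5a and Cox7c did not pass at 48 h (edgeR adjusted p = 0.875 and 0.602) and were lower at d14. Cox5a was at 185, 178 and 164 CPM, then 185, 179 and 152, then 104, 121 and 122, with d14 alone apart (-0.57 ± 0.12 from 48 h to d14, edgeR adjusted p = 0.00441). Ndufa4 (chr6:11900292-11907497), first assigned to complex I, was at 296, 247 and 253 CPM, then 209, 181 and 179, then 132, 172 and 163; no group overlapped another and it had the largest fall in the complex at d14 against uninjured, -0.77 ± 0.13 (edgeR adjusted p = 0.000703). Cox5b, at 293, 277 and 269.7 CPM, then 282, 258 and 239.6, then 196, 257 and 265, did not pass in any comparison.

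For 2 subunits with tissue isoforms the ubiquitous genes Cox6a1 and Cox7a2 were members, whereas the heart and skeletal muscle isoforms Cox6a2 (73 counts over the 9 libraries) and Cox7a1 (747) fell under the count threshold, as did Cox4i2 (9 counts). Cox6a1 was at 311, 303 and 294 CPM, then 259.9, 249.8 and 237, then 196, 214 and 240.1, with uninjured above both other groups and -0.48 ± 0.11 at d14 (edgeR adjusted p = 0.00416). Cox7a2 was at 181, 154 and 161 CPM, then 155, 141 and 130, then 95.5, 116 and 109, with d14 below both other groups (-0.63 ± 0.12 against uninjured, edgeR adjusted p = 0.00134). Cox7a2l (chr17:83501918-83517330), which encodes a relative of Cox7a2 known as a factor that joins complexes III and IV in supercomplexes, did not follow. It was at 98.2, 100.9 and 95.4 CPM in uninjured cells, 99.2, 101.2 and 98.4 at 48 h after IRI and 97.2, 87.8 and 112 at d14, all groups overlapped, and its log2 fold change was 0.01 ± 0.11 at d14 against uninjured (edgeR adjusted p = 0.940). The ratio of Cox7a2l to Cox7a2 counts, which needs no scaling of libraries, was 0.597 ± 0.0554, 0.704 ± 0.0600 and 0.932 ± 0.152 (mean ± SD, n = 3), and the d14 libraries lay above the uninjured ones.

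**Figure D3:**
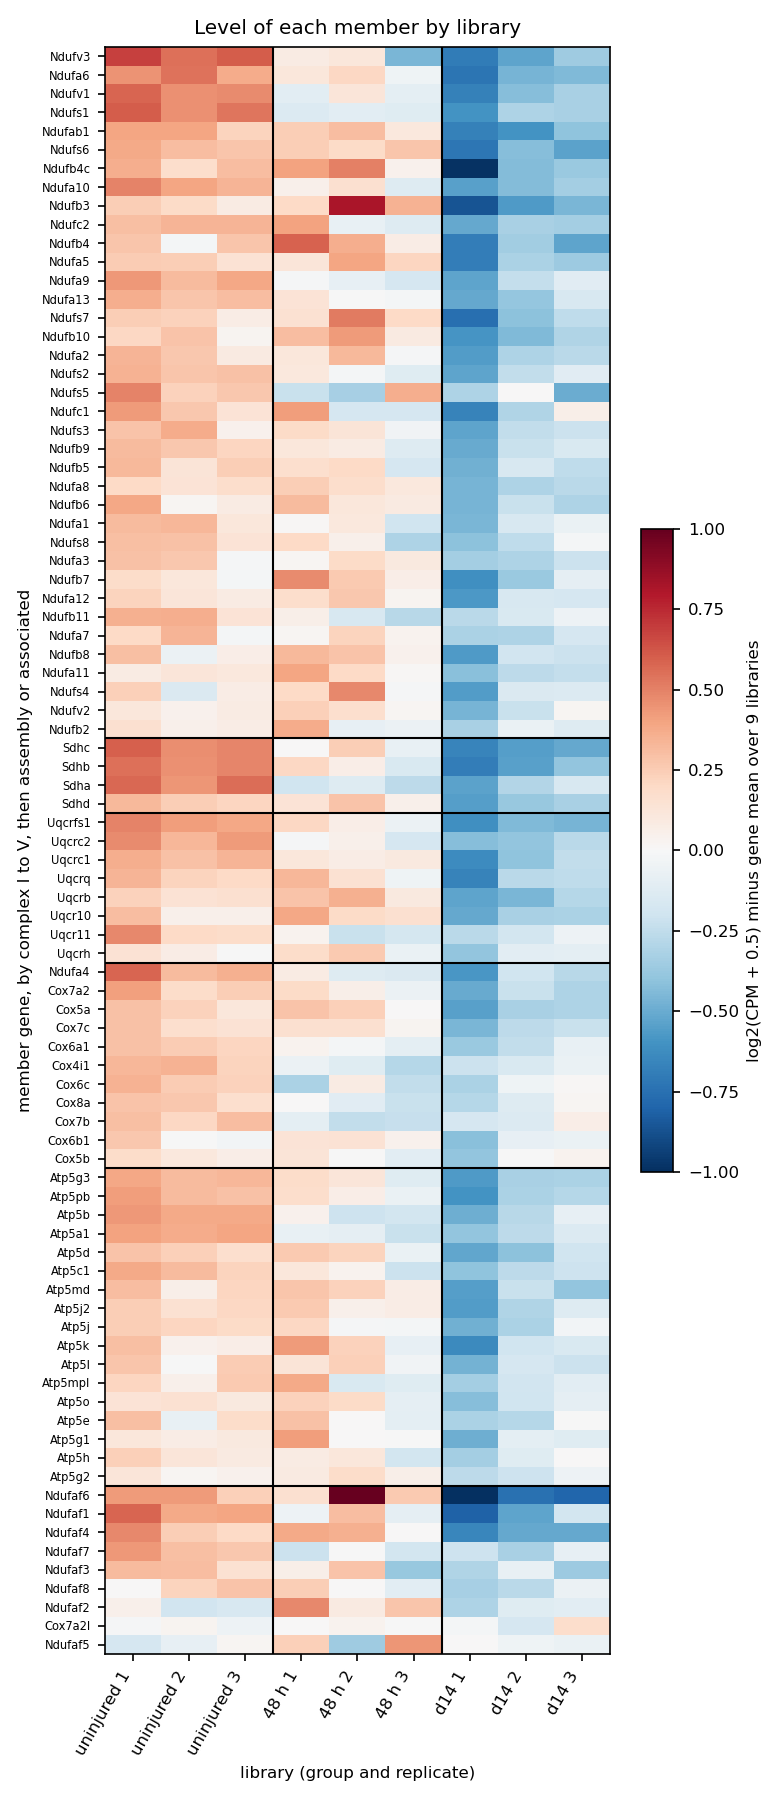
Level of each of the 86 genes (rows, by complex I to V and then assembly or associated) in each library (columns), as log2(TMM-scaled CPM + 0.5) minus the gene's mean over the 9 libraries; colours end at -1 and 1, so lower or higher values share the end colours. The uninjured columns are mostly red, the 48 h columns mixed and the d14 columns mostly blue, with 84, 78 and 79 of the genes above their own mean in the uninjured libraries, 74, 63 and 32 at 48 h after IRI and 1, 1 and 8 at d14; the d14 columns turn paler with library size alone, which moves each column as a whole.

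Complex V had the most abundant transcripts of the set. Atp5b (chr10:128083273-128090391) was at 2388, 2290.0 and 2291 CPM in uninjured cells, 1814, 1528 and 1557 at 48 h after IRI and 1258, 1454 and 1668 at d14. Both injured groups were below uninjured and overlapped each other, with -0.51 ± 0.15 (edgeR adjusted p = 0.0244) and -0.67 ± 0.15 (adjusted p = 0.00323). Atp5a1 (chr18:77773729-77782869) was at 1687, 1653 and 1680 CPM, then 1211, 1202 and 1096, then 972, 1066 and 1165, the same arrangement, with -0.52 ± 0.13 (edgeR adjusted p = 0.0107) and -0.65 ± 0.13 (adjusted p = 0.00144). These were the only complex V genes called at 48 h. Of the 12 genes of Fo and the peripheral stalk edgeR called 0 then, as did DESeq2 and voom. At an unadjusted p under 0.05 by edgeR 2 of the 12 were lower. The 12 had a median of -0.07, with a range from -0.28 to 0.07, against a median of -0.32 for the 5 F1 genes. The F1 genes were not alike: Atp5a1 was at -0.52, Atp5b at -0.51, Atp5c1 at -0.32, Atp5d at -0.09 and Atp5e at -0.07. Atp5d and Atp5e thus lay within the range of the 12. At d14 against uninjured 8 of those 12 and 4 of 5 F1 genes were lower on the TMM scale (20.7% of all genes). With library size alone edgeR called 0 of either lower (9.13% of all genes), also at an unadjusted p under 0.05, and 1 of the 12 higher (47.1% of all genes), with medians of 0.0953 and -0.0481. The ratio of F1 counts to those of Fo and the peripheral stalk did not overlap between groups. It was 2.11 ± 0.0313 in uninjured cells, 1.69 ± 0.0556 at 48 h after IRI and 1.95 ± 0.0767 at d14 (mean ± SD, n = 3). Atp5b and Atp5a1 weigh most in this ratio, with uninjured means of 2323 and 1674 CPM in an F1 sum of 4758. Atp5pb, a peripheral stalk subunit, was at 417, 388 and 381 CPM, then 352, 325 and 296, then 205, 249.9 and 255. Its groups did not overlap, and it passed at d14 against uninjured (-0.74 ± 0.12, edgeR adjusted p = 0.000518) but not at 48 h (adjusted p = 0.108). Atp5md, a small subunit of the membrane part, was at 83.8, 70.1 and 78.6 CPM, then 82.0, 79.3 and 71.1, then 45.8, 57.8 and 51.1, with uninjured and 48 h overlapping and d14 below (-0.59 ± 0.12 from 48 h, edgeR adjusted p = 0.00428).

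Subunit c, the ring protein of Fo, is encoded by 3 genes with the same mature product. Atp5g3 (chr2:73908447-73911326), the most abundant, was at 576, 548 and 555 CPM, then 501, 479 and 405, then 297, 351 and 354. No group overlapped another, and it fell by 0.74 at d14 against uninjured (SE 0.13, edgeR adjusted p = 0.00054). Atp5g1 was at 168, 164 and 166 CPM, then 207, 156 and 155, then 111, 145 and 143, and Atp5g2 was at 95.1, 88.5 and 90.1 CPM, then 92.8, 99.2 and 91.2, then 72.9, 75.7 and 84.4. Neither passed in any comparison (for d14 against uninjured, edgeR adjusted p = 0.0925 and 0.0829). As a share of the counts of the 3 genes, Atp5g3 held 68.5 ± 0.124% in uninjured cells, 63.3 ± 1.68% at 48 h after IRI and 61.4 ± 0.442% at d14 (mean ± SD, n = 3). Every injured library was below every uninjured one, and the d14 libraries were below those at 48 h.

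The assembly factors of complex I belonged to the group with the lowest median level per kilobase. Ndufaf6 (chr4:11051045-11076205), needed for the membrane arm, was at 11.4, 11.4 and 9.95 CPM in uninjured cells, 9.37, 19.8 and 10.1 at 48 h after IRI and 3.45, 4.79 and 4.60 at d14. Replicate 2 at 48 h was well above all other libraries, uninjured and 48 h overlapped, and d14 was below both. It had the largest falls of all 86 genes, -1.35 ± 0.29 at d14 against uninjured (edgeR adjusted p = 0.00267) and -1.59 ± 0.29 against 48 h (adjusted p = 0.00227). Ndufaf4 was at 33.8, 28.5 and 27.7 CPM, then 31.4, 30.9 and 24.1, then 15.1, 16.7 and 16.7, the same arrangement of groups, with -0.89 ± 0.14 at d14 against uninjured (edgeR adjusted p = 0.000369). Ndufaf7, a methyltransferase that acts on a core subunit, was lower at both times, at 27.4, 24.9 and 24.4 CPM, then 17.3, 20.1 and 17.7, then 17.4, 16.03 and 19.05 (-0.48 ± 0.13 at 48 h, edgeR adjusted p = 0.0188). Ndufaf2 was the only member whose 48 h libraries all exceeded the uninjured ones, at 11.7, 9.83 and 10.1 CPM against 15.9, 12.1 and 13.8, and it did not pass (0.41 ± 0.18, edgeR adjusted p = 0.105).

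The size and, for some genes, the direction of the d14 differences depended on how libraries were scaled. Under TMM, median-of-ratios, upper-quartile, TMM without mitochondrially encoded genes and TMM set without the 86 genes, 17 to 22 genes were lower at 48 h, 70 to 77 at d14 against uninjured and 47 to 55 at d14 against 48 h. Of all genes 9.96% to 13.3%, 19.8% to 23.0% and 16.3% to 17.2% were then called lower. With library size alone, which shifts the median of all genes from 0.06 to 0.63 in d14 against uninjured, 10 genes were lower (9.13% of all genes) and 3 higher (47.1% of all genes), and the median of the 86 was -0.01. In d14 against 48 h that scaling moved the median of all genes from 0.05 to 0.63, and 2 genes were then lower (6.02% of all) and 16 higher (43.9% of all), with a median of 0.17. The number of the 86 genes with a log2 fold change above 0 went from 2 to 42 in d14 against uninjured and from 3 to 65 in d14 against 48 h. A scaling moves all genes of a library by about the same amount, so the median of the 86 minus that of all genes (-0.62 and -0.46 with TMM) is nearly fixed by construction. At 48 h against uninjured library size alone left 21 genes lower (10.5% of all), since the TMM factors of those groups are close. With the library size counted without mitochondrially encoded genes, a choice made after seeing the data, 3 genes were lower and 2 higher at 48 h (6% and 23.1% of all genes), 18 and 1 at d14 against uninjured (10.8% and 43.6%) and 19 and 1 at d14 against 48 h (9.99% and 28%). Under all 7 scalings Ndufs1, Ndufv3 and Sdha were lower at 48 h. At d14 against uninjured 10 genes were: Ndufa6, Ndufab1, Ndufs1, Ndufs6, Ndufv1, Ndufv3, Sdhb, Sdhc, Uqcrfs1 and Ndufaf6. At d14 against 48 h Ndufb3 and Ndufaf6 were. The share of all genes lower under all 7 scalings was not computed. In the 3 comparisons the scaling that left the fewest of the 86 lower called 6%, 9.13% and 6.02% of all genes lower. It left 3, 10 and 2 of the 86 lower.

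**Figure D4:**
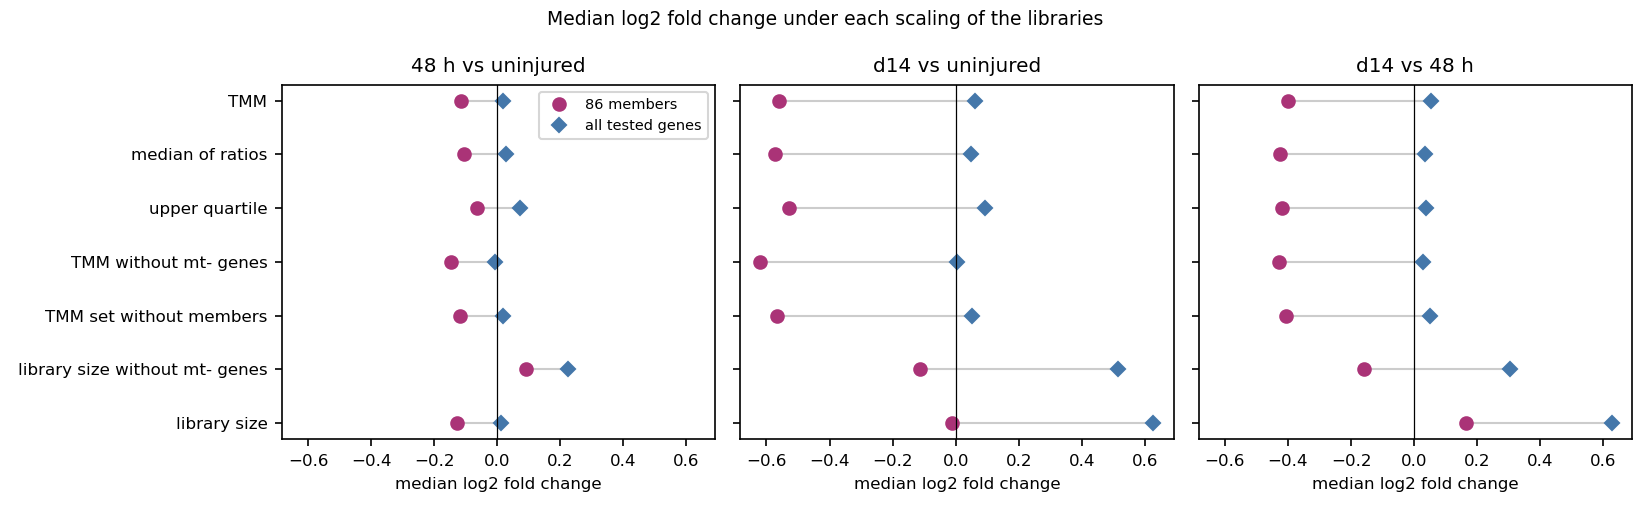
Median log2 fold change of the 86 genes (circles) and of all tested genes (diamonds) in the 3 comparisons under 7 scalings of the libraries (rows). In the d14 comparisons both medians move right together with library size, from -0.56 to -0.01 and from -0.40 to 0.17 for the 86 genes, since a scaling shifts all genes of a library by about the same amount.

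Shares among the subunit genes need no scaling of libraries. Of the counts of all 77 subunit genes complex II held 8.16%, 7.98% and 8.42% in uninjured libraries, 6.62%, 7.24% and 6.99% at 48 h after IRI and 6.79%, 6.72% and 6.77% at d14. All 6 injured libraries lay below all uninjured ones. Complex IV held 16.15%, 16.02% and 15.65%, then 15.98%, 16.1% and 16.3%, then 18.1%, 18.1% and 17.7%, so that d14 alone stood above. The share of complex I was 25.3 ± 0.358% in uninjured cells, 27.3 ± 0.653% at 48 h after IRI and 24.8 ± 0.306% at d14 (mean ± SD, n = 3), and that of complex III 9.61 ± 0.124%, 10.3 ± 0.0557% and 9.40 ± 0.161%, both highest in the 48 h libraries. Complex V, with 40.9 ± 0.471%, 39.4 ± 0.984% and 41.1 ± 0.437%, overlapped between uninjured and d14. The 86 genes together held 1.53 ± 0.0906% of all counts in uninjured cells, 1.25 ± 0.0436% at 48 h after IRI and 1.47 ± 0.0446% at d14, with uninjured and d14 overlapping. Of the counts outside mitochondrially encoded genes they held 2.10 ± 0.0648%, 1.98 ± 0.180% and 1.87 ± 0.132%; there the d14 libraries lay wholly below the uninjured ones, and 48 h overlapped both.

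**Figure D5:**
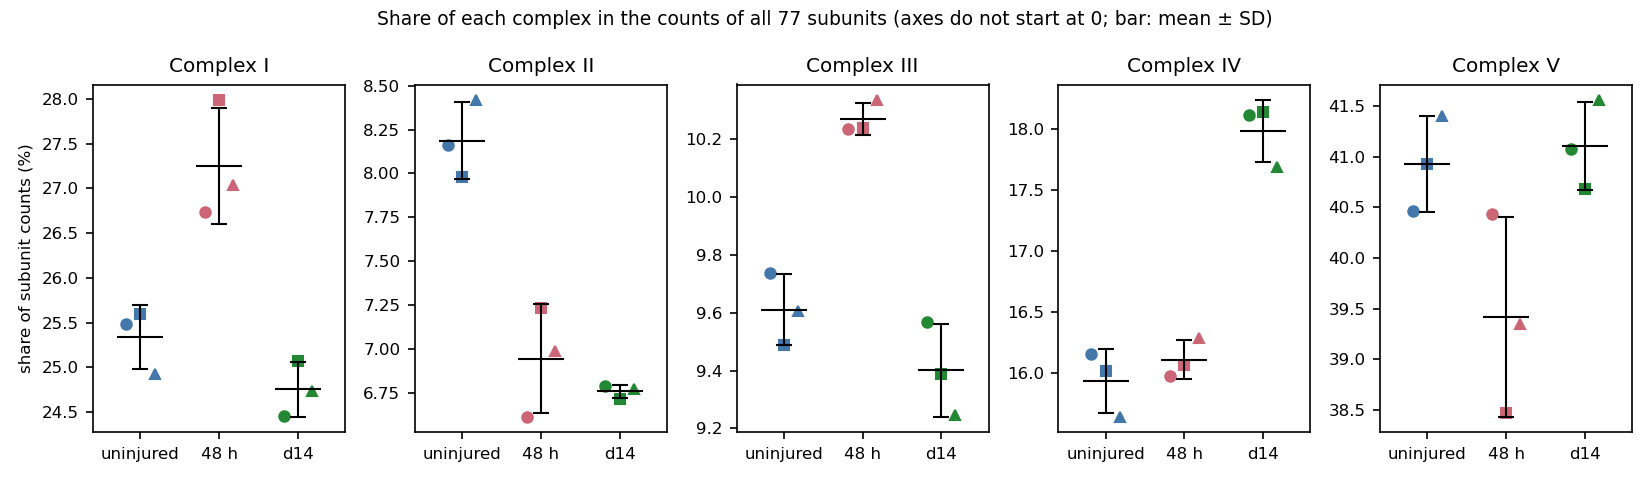
Share of each complex in the counts of the 77 subunit genes, by library (y axes in percent do not start at 0; circle, square and triangle are replicates 1, 2 and 3, and bars are mean ± SD, n = 3). Complex II lies between 7.98 and 8.42% in uninjured libraries and between 6.62 and 7.24% in the others, and complex IV between 17.7 and 18.1% at d14 and at most 16.3% elsewhere.

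To compare the genes with each other, libraries were also scaled by the 86 genes themselves (median of ratios over them), a choice made after seeing the data; a difference is then relative to the rest of the set. At 48 h 3 genes were lower in this sense (5.86% of all genes were), namely Sdha (-0.54 ± 0.13, edgeR adjusted p = 0.00828), Ndufv3 and Ndufs1, and 2 were higher (19.7% of all), Ndufb3 and Ndufaf2. At d14 against uninjured 9 were lower (8.72% of all): Ndufaf6, Ndufv3, Sdhc, Sdhb, Ndufa6, Ndufv1, Ndufs1, Uqcrfs1 and Ndufab1. The 5 that were higher (47.7% of all) were Cox7a2l (0.60 ± 0.14, edgeR adjusted p = 0.00275), Ndufaf2, Atp5g2, Cox5b and Uqcrh. Between d14 and 48 h 7 were lower (7.33% of all): Ndufaf6, Ndufb3, Ndufb4c, Ndufb4, Ndufaf4, Ndufs6 and Ndufab1. Of the 7 that were higher (33.4% of all), Cox7b, Cox6c, Cox4i1 and Cox8a belong to complex IV, beside Cox7a2l, Ndufb11 and Uqcr11. The calls that stood when each of the 9 libraries was left out in turn were Sdha at 48 h; Ndufv3, Sdhc, Sdhb, Ndufa6 and Cox7a2l at d14 against uninjured; and Ndufaf6, Ndufb3, Ndufb4c and Cox7b at d14 against 48 h.

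The 13 mitochondrially encoded subunit genes were compared with the nuclear ones by their share of counts. Their share of all counts was 24.7%, 26.2% and 28.7% in uninjured libraries, 37.9%, 38.4% and 31.4% at 48 h after IRI and 14.9%, 22.6% and 24.7% at d14. The 48 h libraries were above all others, and uninjured and d14 libraries overlapped by a narrow margin. Per count of the 86 nuclear genes there were 17.4 ± 2.37, 28.8 ± 2.24 and 14.1 ± 3.54 mitochondrially encoded counts (mean ± SD, n = 3). Of the 13 genes edgeR called 2 higher at 48 h, where 17.4% of all genes were, mt-Co2 (1.204 ± 0.28, adjusted p = 0.00817) and mt-Atp6 (1.23 ± 0.31, adjusted p = 0.0121), which encode a subunit each of complexes IV and V. At d14 10 were lower against uninjured (20.7% of all genes) and 13 against 48 h (16.3% of all genes), with medians of -0.91 and -1.44 on the TMM scale. With library size alone 3 and 12 were (9.13% and 6.02% of all genes), with medians of -0.38 and -0.89. mt-Nd3, of complex I, was at 2109.5, 2486 and 2108 CPM, then 4026, 3377 and 2482, then 694, 582 and 1143, with d14 below both other groups (-1.47 ± 0.26 against uninjured, edgeR adjusted p = 0.000735).

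Genes that feed or build the chain were taken from lists, and their calls at d14 on the TMM scale are to be read beside the 20.7% of all genes called lower and 25.1% called higher; at 48 h 11.7% were lower and 17.4% higher. Among 8 electron carriers and feeder enzymes 2 were lower at 48 h and 6 at d14 against uninjured. Sqor, which oxidises sulfide and reduces ubiquinone, was at 114, 117 and 118 CPM, then 69.4, 93.0 and 71.8, then 34.4, 34.0 and 45.0, without overlap (-1.62 ± 0.15 at d14, edgeR adjusted p = 5.89e-06). Etfb, of the flavoprotein that passes electrons from fatty acid oxidation, was at 334, 334 and 264 CPM, then 313, 380 and 257, then 87.4, 112 and 122, with d14 alone below (-1.54 ± 0.18, edgeR adjusted p = 3.56e-05), and its partner Etfa was lower at both times (-0.73 ± 0.12 and -1.39 ± 0.12, edgeR adjusted p = 0.00128 and 5.19e-06). Of 17 genes of the citric acid cycle and pyruvate dehydrogenase 6 were lower and 1 higher at 48 h and 15 lower at d14 against uninjured, among them Dlst (-1.23 ± 0.12, edgeR adjusted p = 9.27e-06) and Suclg2 (-1.10 ± 0.12, adjusted p = 2.85e-05). Fh1, the enzyme after succinate dehydrogenase in the cycle, fell by 0.81 at d14 (SE 0.12, edgeR adjusted p = 0.000201) and did not pass at 48 h (adjusted p = 0.156).

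Of 13 genes of coenzyme Q synthesis 3 were lower and 2 higher at 48 h (11.7% and 17.4% of all genes) and 8 lower and 1 higher at d14 against uninjured (20.7% and 25.1% of all genes). Coq8a, a kinase-like protein of the pathway, was at 203, 209.8 and 208 CPM, then 57.9, 81.8 and 81.9, then 40.1, 79.1 and 81.7. Both injured groups lay far below uninjured and overlapped (-1.49 ± 0.24 at 48 h, edgeR adjusted p = 0.0014). Pdss1, which makes the side chain, was at 12.8, 11.3 and 10.9 CPM, then 20.1, 15.8 and 14.2, then 2.46, 4.71 and 6.12, with d14 below both other groups (-1.91 ± 0.30 against 48 h, edgeR adjusted p = 0.000801). Of 40 assembly factors outside the symbol rule 5 were lower and 1 higher at 48 h and 22 lower and 1 higher at d14 against uninjured. The gene higher at both times was Uqcc2, an assembly factor of complex III, at 13.1, 12.1 and 12.97 CPM, then 21.8, 19.5 and 27.3, then 19.5, 14.96 and 18.2 (0.85 ± 0.17 at 48 h, edgeR adjusted p = 0.00308). Cox16 and Coa6, of complex IV, fell at d14 by 1.22 and 1.35 (SE 0.12 and 0.16, edgeR adjusted p = 1.08e-05 and 4.35e-05), while the complex IV subunits had the smallest median fall of the complexes. With library size alone, where 9.13% of all genes were lower and 47.1% higher, the d14 counts against uninjured were 3 lower and 1 higher for the carriers (median -0.39), 7 and 2 for the citric acid cycle (-0.25), 4 and 3 for coenzyme Q synthesis (-0.27) and 8 and 5 for the assembly factors, whose median turned to 0.04.

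Among 13 regulators of mitochondrial biogenesis 2 were lower and 1 higher at 48 h (11.7% and 17.4% of all genes), and 6 lower and 1 higher at d14 against uninjured (20.7% and 25.1% of all genes). With library size alone the d14 counts were 2 and 5 (9.13% and 47.1% of all genes), and the median turned from -0.42 to 0.14. Ppargc1a, which encodes the coactivator PGC-1alpha, was at 45.8, 46.8 and 58.0 CPM in uninjured cells, 43.1, 45.7 and 28.8 at 48 h after IRI and 57.8, 75.2 and 73.3 at d14. The d14 libraries lay above those at 48 h (0.82 ± 0.18, edgeR adjusted p = 0.00608) and overlapped the uninjured ones (0.45 ± 0.18, adjusted p = 0.0569). Esrra, a nuclear receptor partner of PGC-1alpha, was at 113, 131 and 115 CPM, then 133, 80.9 and 83.1, then 53.5, 64.1 and 62.5, with d14 below both other groups (-0.99 ± 0.18 against uninjured, edgeR adjusted p = 0.000964). Ppara, a lipid-activated receptor of fatty acid oxidation, was at 54.8, 56.2 and 62.4 CPM, then 30.6, 85.7 and 27.9, then 11.05, 11.04 and 12.95. Replicate 2 at 48 h exceeded all other libraries, and d14 was below both groups (-2.30 ± 0.39 against uninjured, edgeR adjusted p = 0.00118). Tfam, the mitochondrial DNA packaging and transcription factor, fell stepwise from 40.5, 39.4 and 40.5 CPM through 31.6, 30.3 and 31.9 to 21.8, 23.6 and 28.2, with no overlap (-0.71 ± 0.12 at d14, edgeR adjusted p = 0.0005). Gabpa, whose product binds the ETS core searched above, was lower at both times (-0.66 ± 0.13 and -0.51 ± 0.13, edgeR adjusted p = 0.00379 and 0.00806).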

How the data were processed

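RNA-seq counts per gene were analysed for 9 libraries. The authors deposited RSEM expected counts as whole numbers, per the values in the table and the submitters' processing notes, which list the tools DESeq2 1.26.0, RSEM 1.2.28, STAR 2.6.1, bcl2fastq 2.20 and R 3.6.3 and the builds mm10 and GRCh38 without their roles. No source read gives the annotation release, or whether counting used strand; the kit kept strand, per the labels. The 92 rows of spike-in controls were all at 0 and were left out. All 86 member IDs matched, with version, the GENCODE M21 annotation of GRCm38, from which coordinates, biotypes and exon lengths were taken; promoters came from RefSeq (GRCm38.p6).

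Genes passing edgeR's filterByExpr (minimum count 10, minimum total 15) were scaled by TMM and tested in one model over all 3 groups with edgeR 4.0.16 (R 4.3.3, robust quasi-likelihood F-test, Benjamini-Hochberg adjustment over 15519 genes in each comparison, called at an adjusted p under 0.05). The standard error is the log2 fold change divided by the square root of F. Alternatives were other scalings, no filter, DESeq2 1.42.0, limma 3.58.1 voom with sample weights, fits of 2 groups, the replicate number as a block and each library left out. The pathway lists were rescaled the same way, a step added after seeing the data. The test was tried on simulated data, with changes planted at d14 in genes drawn at random from all those tested. Against uninjured it recovered 18 of 100 changes of 0.75 on the log2 scale and 61 of 100 of 1.5. It called 7 of 15009 unchanged genes. These rates are for genes of any level, and far fewer changes were planted than the 3898 higher and 3214 lower calls in the data. They were not measured for the members, so they do not give the chance of missing a change in those. In the data 71 of 86 members were called lower in that comparison, with a median of -0.56 and a median standard error of 0.127. A gene that did not pass may still have changed. P-values measure the spread between 3 libraries a group, labelled biological replicates. A count of 0 allows up to 3 counts, which is 0.0651 to 0.431 CPM by library, for counting error only.

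The members and gene lists were chosen with earlier results of these data known. Values in every library were chosen for, per comparison and complex, the 3 called members with the smallest p, the largest changes of a comparison, isoform and paralog genes and the subunits of complex II, and for the pathway lists the 3 called genes with the smallest p; other genes named were chosen after their values were seen.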

Additional observations from a re-analysis of the deposited data

How the results depend on the processing

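With other tools edgeR's 21, 71 and 47 lower genes (48 h and d14 against uninjured, d14 against 48 h) were 22, 71 and 57 with DESeq2 and 23, 75 and 40 with voom. Of all genes DESeq2 called 11.3%, 18.5% and 17.2% lower, and voom 12.0%, 25.7% and 15.8%. On library size alone, d14 against uninjured had 3 genes higher and 10 lower with a median of -0.0102 (complexes I to V: -0.0309, -0.39, -0.0668, 0.11 and 0.0689). Signs were compared gene by gene only for the members picked by rule in that comparison, not for every gene described singly. Of those called in either fit, Cox4i1 (0.11), Cox6a1 (0.0738) and Atp5g2 (0.33) changed sign. Among all 86 genes 42 lay above 0 with this scaling in place of 2, so other described genes may have changed sign too. In d14 against 48 h it gave 16 higher and 2 lower with a median of 0.17 (0.11, -0.0133, 0.0334, 0.37 and 0.21), and 65 of 86 lay above 0 in place of 3, among them Sdha (0.43), Cox6a1 (0.37), Cox7a2 (0.16), Cox7c (0.14), Atp5d (0.0503), Atp5g3 (0.10) and Cox7a2l (0.56). The library size without mitochondrially encoded genes, added after seeing the data, gave 2 higher and 3 lower with a median of 0.0903 at 48 h (0.11, -0.25, 0.0379, -0.0757 and 0.12), 1 and 18 with -0.11 at d14 against uninjured (-0.14, -0.49, -0.17, 0.0046 and -0.0343, Cox4i1 at 0.0046), and 1 and 19 with -0.16 at d14 against 48 h (-0.22, -0.34, -0.29, 0.0435 and -0.11). The cause was not tested.

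Leaving out 1 library gave 8 to 21 genes lower at 48 h, 55 to 74 at d14 against uninjured and 26 to 51 at d14 against 48 h. Relative to the 86 genes it gave 0 to 2 higher and 1 to 4 lower, 1 to 7 and 4 to 9, and 2 to 7 and 3 to 7. Replicate numbers did not pair the samples: same-numbered libraries had correlations of -0.170 to 0.061 over 9 pairs, and 1 of 9 libraries correlated best with its own number. With the replicate number as a block 15, 65 and 39 genes were lower (9.85%, 19.4% and 13.7% of all genes). Relative to the 86 genes that block gave 0 higher at 48 h, 1 at d14 against uninjured, and 4 higher and 3 lower at d14 against 48 h. Shares of all genes were not computed for that fit either.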
